A study of Homo sapiens with 18 samples.

Results

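Follistatin, the activin subunits and the core of the TGF-β pathway were followed through 10 genes in MCF10A cells, of 19401 genes listed in at least one of 3 deposited tables. The genes were FST, FSTL1 and FSTL3 (follistatin and its relatives), INHBA and INHBB (activin subunits), TGFB1 and TGFB2 (TGF-β ligands), TGFBR1 and TGFBR2 (the TGF-β receptors) and TGFBI (a TGF-β-induced matrix protein). They were taken from the tables by gene symbol and joined by Entrez ID, and they had been selected on measured values, the results of these same tables, which set a knockout beside wild type (WT). Of the 10 genes, 9 were listed in all 3 tables, and INHBA was not listed in the CBFB table.

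MCF10A is a non-tumorigenic line of human mammary epithelial cells. RNA was sequenced from 18 samples without treatment, in 5 groups. CBFB KO (3 samples) was set beside its own WT (3 samples), and RUNX1 KO1 (4 samples) and RUNX1 KO2 (4 samples) were set beside the WT of the RUNX1 experiment (4 samples). CBFB is the partner that does not bind DNA in the core-binding factor, and RUNX1 is a subunit that does. Each knockout was made with CRISPR-Cas9 and grown from single-cell colonies, so a knockout and its clone cannot be told apart. The RUNX1 groups KO1 and KO2 are read here as separate clones, as the series names a pair of RUNX1 clones.

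TGF-β ligands bring together a type II receptor, TGFBR2, and a type I receptor, TGFBR1, which phosphorylates SMAD2 and SMAD3. These then enter the nucleus with SMAD4. Activins are dimers of inhibin β subunits that signal through their own receptors to the same SMADs, and follistatin and FSTL3 bind activins outside the cell and keep them from their receptors. In mammary epithelial cells TGF-β signaling is known to restrain growth and to raise the expression of extracellular matrix genes.

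The values are the authors' means of normalized counts, 1 per gene and table, each taken over the knockout and WT libraries of that table together. The study's fold changes and p-values are not used here. No value of a single library and no difference between a knockout and its WT is therefore given, the means carry no SD, and whether RUNX1 or CBFB mRNA was lost in the knockouts could not be read from them. In the order CBFB table, KO1 table, KO2 table, the mean of RUNX1 was 1606, 922 and 839, and that of CBFB was 897, 1058 and 931. The summed means were 20214423, 18050386 and 16467400. Size factors of the libraries, which scale with depth, could be recovered for every library, unnamed, and in the same order spanned 0.657 to 1.18, 0.921 to 1.10 and 0.562 to 1.29. All 8 basal mammary markers had means of at least 729.9 wherever they were listed, while the 4 leukocyte and 4 endothelial markers stayed at or below 11.7. Of 6 luminal markers, 2 reached a mean of 100 (GATA3 and FOXA1) and ESR1 had means from 53.9 to 77.6. KRT19 stayed at or below 2.05, ELF5 at or below 0.303 where listed, and PGR was listed nowhere. Of 6 fibroblast markers, 2 reached a mean of 100 (COL1A1 and PDGFRA) and DCN had means from 6.66 to 7.34. COL1A2 and LUM stayed below 1 and COL3A1 was listed nowhere.

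The promoters of INHBA and FST are shown because their means lay furthest apart, in opposite directions, between the RUNX1 tables. Each is a RefSeq window of 250 bases before to 50 bases after the annotated start, in the build GRCh38.p14, written 5′ to 3′ on the gene's strand. That of INHBA is chr7:41703041-41703340 on the minus strand and that of FST is chr5:53480379-53480678 on the plus strand. Capitals mark TGTGGT or TGCGGT, the core forms of the RUNX motif, or their reverse complements ACCACA and ACCGCA.
INHBA: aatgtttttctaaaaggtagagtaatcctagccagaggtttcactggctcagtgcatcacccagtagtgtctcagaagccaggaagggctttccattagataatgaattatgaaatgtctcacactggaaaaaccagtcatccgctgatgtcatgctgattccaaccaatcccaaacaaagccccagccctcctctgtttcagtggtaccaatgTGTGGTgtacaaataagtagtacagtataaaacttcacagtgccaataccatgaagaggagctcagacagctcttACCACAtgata
FST: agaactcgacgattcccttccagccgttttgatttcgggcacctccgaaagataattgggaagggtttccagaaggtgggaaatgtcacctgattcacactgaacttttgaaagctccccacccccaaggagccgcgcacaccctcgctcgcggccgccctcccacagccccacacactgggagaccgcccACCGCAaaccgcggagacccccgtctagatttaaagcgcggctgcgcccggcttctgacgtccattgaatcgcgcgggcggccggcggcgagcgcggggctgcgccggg
The INHBA window held the RUNX letters at 2 places, from 36 bases before the start and, on the opposite strand, from base 40 after it. The FST window held them at 1 place on the opposite strand, from 59 bases before the start, in the form ACCGCA. Both strands were searched in 18 windows of the 10 genes, and 3 genes had a match, INHBA with TGTGGT and FST and TGFBR1 with TGCGGT. TGFBR1 had 8 of these windows and TGFBR2 had 2, so the genes did not have equal chances of a match. Of all 35116 windows of this length, 19.6% held either form, 13.1% TGTGGT and 7.29% TGCGGT. The letters CAGACA, a SMAD-type element, were found in windows of INHBA, TGFB2 and TGFBR1 and in 16.9% of all windows. All these shares are of windows, whereas the matches are counted by gene, so the 2 cannot be compared directly. These are matches of letters and no binding was measured. A missing match says only that the letters are not in this window.

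The 10 genes spanned levels from near 0 to among the highest in the cells. Levels between genes are compared as the mean normalized count per kilobase of the longest transcript, and the KO1 table is used where 1 table is named. TGFBI, a secreted matrix protein, was the highest, at 6697 per kilobase, above 99.2% of the genes with a known length in that table. In MCF10A the follistatin family was led by FSTL3, a secreted antagonist of activins, at 1982 per kilobase (above 96.7% of genes), 8.80 times the 225 per kilobase of FST. FSTL1, a secreted glycoprotein of the family, stood at 245 per kilobase. Its ratio to FST depended on the length used, at 1.09 with the longest transcript, 3.17 with the shortest protein-coding transcript and 2.84 with the coding length. Those shortest transcripts, of 565 bases for FSTL1 and 705 for FST, are shorter than the coding lengths of 924 and 1032 bases. The order of FSTL1 and FST was not the same in every table, with FSTL1 at 224 and FST at 245 per kilobase in the KO2 table, and at 476 and 165 in the CBFB table.

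The activin subunits, whose dimers follistatin and FSTL3 bind, were low. INHBA, which encodes the βA subunit of activin A, had a level of 18.3 per kilobase in the KO1 table against 10.6 in the KO2 table. INHBB, which encodes the βB subunit, was at 0.469 and 0.441 per kilobase, which are means of 1.502 and 1.4145 normalized counts. The level of FSTL3 was 108 times that of INHBA in the KO1 table and 201 times that level in the KO2 table. FST stood at 12.3 times and 23.2 times the level of INHBA. With the coding length the KO1 ratios were 73.6 for FSTL3 and 6.38 for FST. With bulk RNA, fewer cells that express a gene and less RNA per cell cannot be told apart.

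Of the TGF-β ligands, TGFB1 was expressed at 384 per kilobase and TGFB2 at 1.62, so that TGFB1 stood 237 times above TGFB2 there. The ratio was 239 for KO2 and 265 for CBFB. In the KO1 table it was 1156 with the shortest protein-coding transcript and 147 with the coding length. The shortest such transcript of TGFB1 has 559 bases, fewer than its coding length of 1170. The ratio of the receptors depended on the length used. With the longest transcript TGFBR2 reached 661 per kilobase and TGFBR1 89.7, a ratio of 7.36, which was 8.36 for KO2 and 6.73 for CBFB. With the coding length the KO1 ratio was 4.47. With the shortest protein-coding transcript the order turned, at 663 for TGFBR2 and 1111 for TGFBR1, a ratio of 0.596. That transcript has 526 bases for TGFBR1, shorter than its coding length of 1521, against 4605 bases for TGFBR2. This ratio sets a partial transcript beside a nearly full one and does not show that TGFBR1 was the higher. TGFBI, FSTL3, TGFBR2 and TGFB1 held ranks 1 to 4 in all 3 tables by the longest transcript, and INHBB was last in all 3. With only 1 mean per table, no spread over libraries stands behind these orders.

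**Figure D1:**
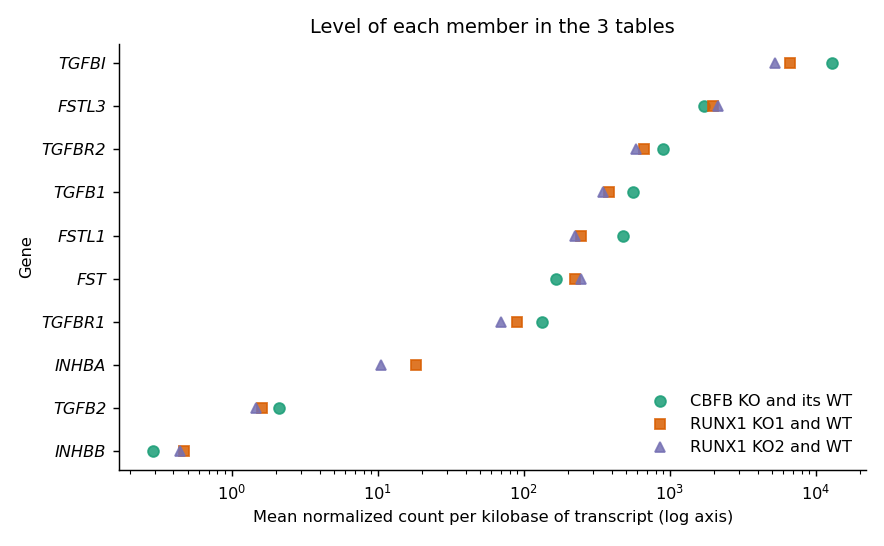
Mean normalized count per kilobase of the longest transcript (horizontal log axis) of each of the 10 genes (vertical axis), with 1 point per table and no error, since each point is a mean over knockout and WT libraries together. TGFBI is highest in every table, the activin subunits and TGFB2 are lowest, and INHBA has no point for the CBFB table.

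Set side by side across experiments, each mean was scaled to 1000000 of its own table's summed means. They were normalized separately and have different WT libraries, so nothing was tested between them. In the order CBFB, KO1, KO2, the scaled level of TGFBI was 2996, 1729 and 1497. That of FSTL1 was 139.8, 80.6 and 80.8. FST was at 20.8, 31.7 and 37.8, and FSTL3 at 217, 279 and 328. Among the 9 genes listed in all tables, 6 had their highest mean in the CBFB table (FSTL1, TGFB1, TGFB2, TGFBR1, TGFBR2 and TGFBI), while FST, FSTL3 and INHBB had their lowest there. Of all 17252 genes listed in the 3 tables, 67.2% had their highest mean in the CBFB table and 24.3% their lowest. On this deposited scale 6 of 9 is near the share of all genes. After scaling to the tables' sums the shares were 50.5% and 39.5%, and the same 6 genes were highest in the CBFB table. With 9 genes, no departure from either share was tested.

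The missing INHBA row gives no level of that gene in the CBFB experiment. Of 10174 genes whose mean reached 100 in each RUNX1 table, 13 were not listed in the CBFB table. INHBA is not among these 10174. Of the 10699 genes with such a mean in the KO1 table, which include INHBA, 18 were not listed in the CBFB table. In the KO2 table, 354 of the 10699 were not listed. These included KRT14, a basal keratin with a mean of 9515 in the KO1 table.

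The clones were compared through the RUNX1 tables. Each of these averages 4 libraries of a clone with 4 WT libraries. Genes at exactly 1 read, in 1 library, show which libraries the tables have in common. There were 336 genes with 1 read in both tables, of which 265 fell on 4 pairs of size factors that matched each other and no others, with 58 to 72 genes per pair. The remaining 71 were spread over the other libraries. The 4 common libraries had size factors 1.05 to 1.07 times higher in the KO2 table. With the same WT in both averages and on the scale of the common libraries, the ratio of the means, KO2 table over KO1 table, moves in the direction of the ratio between the clones and is no larger in size than it. The ratio given here was centred on the median of the 10174 genes (a log2 ratio of -0.10 before centring), which set it 0.02 above its value on the scale of the common libraries. Differences in normalized counts between the clones are given on that latter scale, where the WT cancels as far as the 4 libraries' factors keep to their mean ratio of 1.06. It has no replicate error, so it is a description without a test, and each SE given with it covers counting error only. A log2 ratio of at least 0.32 either way was counted as past the limit.

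Of the 10 genes, INHBA differed most between the tables. Its mean was 110.9 normalized counts in the KO1 table against 64.1 in the KO2 table, which is 68.9 on the scale of the KO1 table. The centred log2 ratio was -0.69 ± 0.08 (counting SE), and the mean was 1.61 times higher in the KO1 table. By these means the level in clone KO1 exceeded that in clone KO2 by about 85.8 normalized counts. Clone KO1 then lay between about 85.8 and 222 normalized counts and clone KO2 between 0 and about 136. INHBA fell below the minimum mean of 100 in the KO2 table and is not counted among the 10174 genes, of which 2 had a lower ratio.

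Of the other 9 genes, 7 reached a mean of 100 in each RUNX1 table, and 0 of the 7 were past the limit. Among all 10174 genes, 5.36% were past it with the higher mean in the KO2 table and 0.423% with the higher mean in the KO1 table (545 and 43 genes). These counts depended on scaling. They were 146 and 215 without centring, and 193 and 56 with a trend on transcript length and GC content removed. The 7 genes had a median log2 ratio of -0.03, beside 0 for all genes by construction, with 2 of them above 0 and 5 below.

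FST and FSTL3, the antagonists of activins, were the pair above 0. The mean of FST was 572 in the KO1 table against 622 in the KO2 table, 668 after rescaling, a log2 ratio of 0.22 ± 0.03 (counting SE). The mean of FSTL3 was 5037 in the KO1 table against 5405 in the KO2 table, 5807 after rescaling, a log2 ratio of 0.21 ± 0.01. By these means clone KO2 exceeded clone KO1 by about 175 normalized counts for FST and 1384.5 for FSTL3. The ratio of FST was at or above that of 87.6% of genes, and for FSTL3 this share was 85.9%. Many genes thus had higher ratios than this pair, and neither gene was past the limit. Both genes were above 0 under each of the 8 settings examined, from 0.12 to 0.25 for FST and from 0.06 to 0.23 for FSTL3. FSTL1 had a log2 ratio of -0.02 ± 0.02, and its sign changed between settings.

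TGFBR1 and TGFBI lay on the other side. TGFBR1 had a mean of 585 in the KO1 table against 456 in the KO2 table (489.6 after rescaling), a log2 ratio of -0.26 ± 0.03 (counting SE), lower than all but 1.08% of genes. TGFBI had a mean of 31214 in the KO1 table against 24649.8 in the KO2 table, a log2 ratio of -0.24 ± 0.0043, lower than all but 1.56% of genes. By these means clone KO1 exceeded clone KO2 by about 203 normalized counts for TGFBR1 and 10167 for TGFBI. Without centring both genes passed the limit, at -0.36 and -0.34. TGFBR2 was nearer the median gene, at -0.07 ± 0.01, and TGFB1 at -0.03 ± 0.02. TGFB2, with means of 8.17 and 7.43, and INHBB had few reads. Their log2 ratios of -0.03 and 0.02 were smaller than their counting SEs of 0.26 and 0.60.

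**Figure D2:**
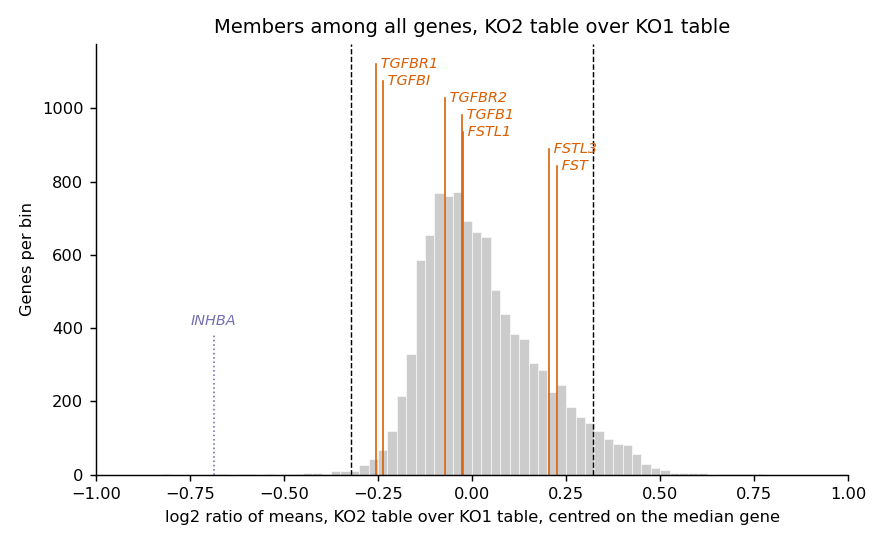
Number of genes (vertical axis, bins of equal width) by the centred log2 ratio of means, KO2 table over KO1 table (horizontal axis), for the 10174 genes that reached a mean of 100 in each. Solid lines mark the 7 genes counted there, the dotted line marks INHBA, which is not counted, and dashed lines mark a log2 ratio of 0.32 either way. FST and FSTL3 stand to the right, TGFBR1 and TGFBI to the left, and INHBA lies far outside.

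The ratio moved with transcript length across all genes. Its median was 0.16 for genes with transcripts of up to 2242 bases, 0.05 from 2243 to 3245 bases, -0.05 from 4395 to 6046 bases and -0.08 from 6048 bases upward. The KO2 table also held 1 shallow library outside the common 4, with a size factor of 0.562 where the other such libraries had at least 1.10. The part of these in the results was not tested. FST and FSTL3 have transcripts of 2538 and 2542 bases, and TGFBR1, INHBA and TGFBI of 6516, 6064 and 4661 bases. Once a quadratic trend on log2 length and GC content was subtracted, the log2 ratio was 0.20 for FST, 0.06 for FSTL3, -0.16 for TGFBR1, -0.24 for TGFBI, -0.15 for TGFB1 and -0.60 for INHBA. FSTL3 was nearer to genes of its own length and composition than FST was, while TGFBI kept its value.

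**Figure D3:**
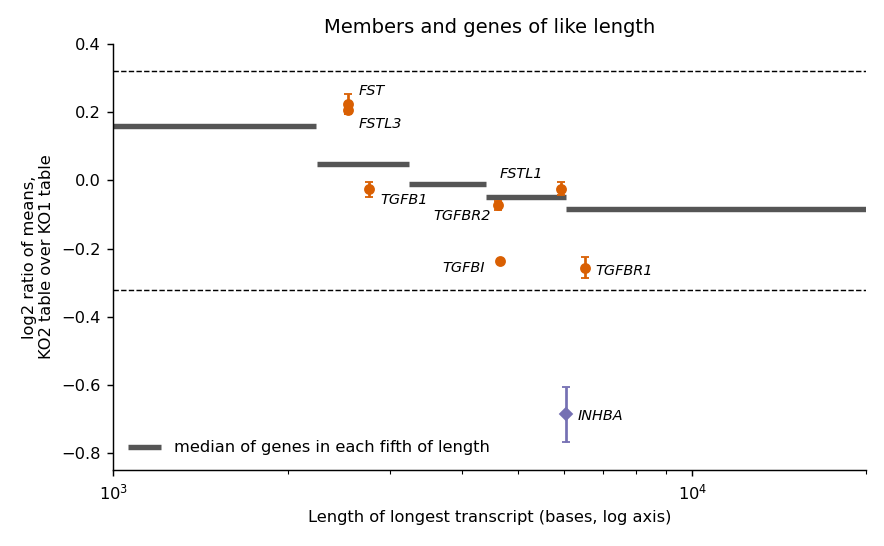
Centred log2 ratio of means, KO2 table over KO1 table (vertical axis), against the length of the longest transcript in bases (horizontal log axis). Bars give the median of all genes in 5 classes of length, points the members with their counting SE (INHBA as a diamond), and dashed lines a log2 ratio of 0.32 either way. FST and FSTL3 lie above the bar of their class, and TGFBI, TGFBR1 and INHBA lie below theirs.

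A wider list of 60 genes of the pathway held the 10 genes and 50 others. Of the 60, 56 were listed in at least one table and 36 reached a mean of 100 in each RUNX1 table. Past the limit were 1 gene with the higher mean in the KO2 table and 2 with the higher mean in the KO1 table. Among all genes, 5.36% and 0.423% were past it in these directions. The counts by role below stand beside the same shares, and no difference from them was tested. The median log2 ratio of the 36 was -0.06, with 26 below 0 and 10 above. By construction, as many of all genes lie below 0 as above. The counts of signs by role below stand beside that even split, and no departure from it was tested. With the length and GC trend removed the median was -0.08, and 2 of the 36 were past the limit (ITGB6 and TAGLN). The shares of all genes were then 1.91% with the higher mean in the KO2 table and 0.555% in the KO1 table. Centred on the common libraries, 5 were (ITGB6, TAGLN, LTBP2, COL4A1 and SMURF2), beside 4.44% and 0.501% of all genes in the same order.

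Of the ligands, only TGFB1 and GDF11 reached the minimum mean. GDF11, which signals through activin receptors, had means of 237 and 226 and a log2 ratio of 0.03. GDF15, a stress-induced member of the TGF-β superfamily, had means of 85.2 and 112, below the minimum in the KO1 table, and a log2 ratio of 0.50 ± 0.07 (counting SE), which was 0.27 and inside the limit with the length and GC trend removed. The ligand genes INHA and INHBC and the binding protein gene FSTL4 were also past the limit but had means below 3 in both tables, and their counting SEs were larger than their log2 ratios.

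Of the binding proteins, 10 had a sufficient mean and 1 was past the limit. LTBP2, of the family of latent TGF-β binding proteins, had means of 443 and 329 and a log2 ratio of -0.32 ± 0.04. It was inside the limit when tables were centred on their summed means (-0.30) or the length and GC trend was removed (-0.27). THBS1, a matrix protein that can activate latent TGF-β, was the highest of the binding proteins, with means of 11754 and 9133 and a log2 ratio of -0.26.

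Of the receptors, 6 had a sufficient mean and 0 were past the limit. ENG, a co-receptor, had means of 1523 and 1522 and a log2 ratio of 0.10. ACVR1C, a type I receptor, had a log2 ratio of -0.49 ± 0.25 with means of 10.6 and 7.005. Among SMADs and their regulators, 10 had a sufficient mean, 0 were past the limit and 9 of the 10 were below 0, with a median of -0.12. With the length and GC trend removed, 7 of the 10 were below 0 and the median was -0.07. The highest of them were SKI, a repressor of SMAD-driven transcription (means of 1275 and 1045, log2 ratio -0.18), SMAD2 (1167 and 1054, -0.04, but 0.23 with the trend removed) and SMURF2, a ubiquitin ligase that acts on the pathway (964 and 727, -0.30, and past the limit at -0.32 when centred on the common libraries). The longest transcript of SMAD2 has 34526 bases, and whether the trend holds at that length was not tested.

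Target genes were the most spread. Of the 8 with a sufficient mean, 6 were below 0, and 2 were past the limit. ITGB6, the integrin subunit that activates latent TGF-β with its αv partner, had means of 2483 and 1534 and a log2 ratio of -0.59 ± 0.02 (counting SE). COL4A1, a collagen chain of basement membranes, had means of 1869 and 1407 and a log2 ratio of -0.31 ± 0.02, just inside the limit, and was past it at -0.33 when centred on the common libraries. TAGLN, an actin-binding protein, went the other way, with means of 1589 and 2175 and a log2 ratio of 0.56 ± 0.02. ITGB6 and TAGLN were past this limit under every centring, minimum mean and trend correction. At a ratio limit of 1.5 ITGB6 was barely past it, at 1.506, and TAGLN, with a ratio of 1.47, was not. Centred on the summed means (log2 ratio -0.56) or with the trend removed (-0.53), ITGB6 was inside a ratio of 1.5 as well.

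**Figure D4:**
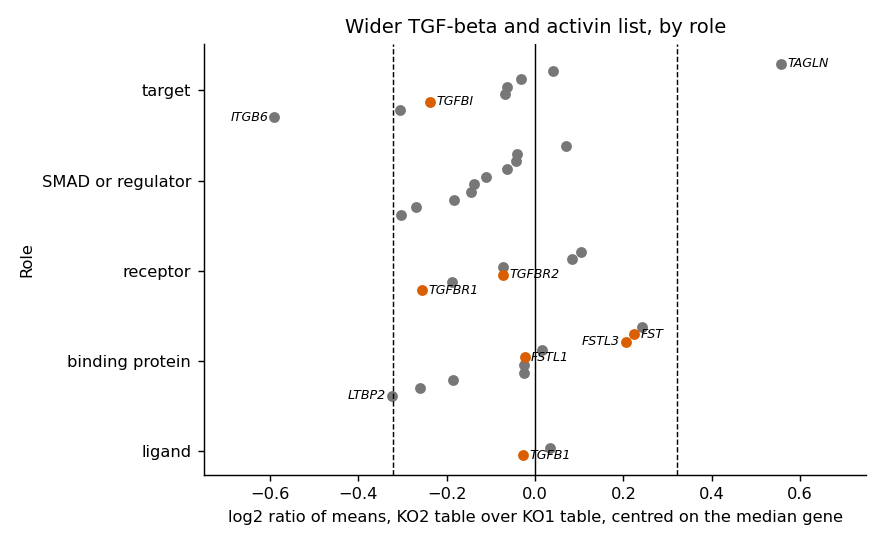
Centred log2 ratio of means, KO2 table over KO1 table (horizontal axis), for the 36 genes of the wider list that reached a mean of 100 in each, grouped by role (vertical axis, genes spread within a role for legibility only). Orange points are members, grey points other genes, and dashed lines a log2 ratio of 0.32 either way. ITGB6 and LTBP2 lie beyond the left line and TAGLN beyond the right one.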

How the data were processed

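RNA-seq was done by the study on 18 samples of MCF10A cells and its clones. The labels name a TruSeq mRNA kit, whereas the paper's methods speak of depleting ribosomal RNA. Per the submitters' processing notes, Trimmomatic, STAR and DESeq2 were used with the build hg19. Parameters and read counter are not given in the sources used here. Of the authors' deposited tables, 3 set a knockout beside WT, each with a signal per gene, the mean of normalized counts over all libraries of the table. Each table also holds 5 columns of the authors' own comparison (log2 fold change, its SE, a test statistic, p-value and adjusted p-value), which were not used. There were 0 columns of values per sample.

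The members and lists were chosen with earlier results of these data known. Size factors were recovered from means shared by more than 60 genes, which are those of 1 read in 1 library. Lengths and GC content came from GENCODE release 29 (the longest transcript) and covered at least 97.2% of genes of each table. Clone ratios were computed in Python 3.11.15 with pandas 2.3.3 and numpy 2.4.6, for genes whose mean reached 100 in each RUNX1 table. The calculation was checked on simulated data with known size factors, the same WT values in both tables and large planted changes. No length or GC trend and no difference in WT scaling was simulated, so the check does not cover these. The counting SE takes the mean times the number of libraries as reads and treats the tables as separate, although they share libraries. Counting error leaves out variation between cultures. Promoters came from RefSeq.

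Named genes were all 10 members and, of the wider list, the 3 of each role with the highest mean and every gene past the limit. A further 2 genes of that list are not reported here, and its counts leave them out. Alternatives were other centrings, minimum means of 10 and 1000, a limit of 1.5, other lengths and scaling to each table's sum. Centring on the common libraries, removal of the length and GC trend and the use of coding length were chosen after seeing the data.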

Additional observations from a re-analysis of the deposited data

How the results depend on the processing

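Counts of genes past the limit depended on scaling and thresholds. Set against 545 genes with the higher mean in the KO2 table and 43 with the higher mean in the KO1 table, the counts were 146 and 215 without centring, 900 and 157 at a minimum mean of 10, 166 and 14 at a minimum of 1000, and 15 and 7 at a ratio limit of 1.5. With the length and GC trend removed they were 193 and 56. Centring on the summed means (708 and 31) or on the common libraries (452 and 51) kept both within 1.5 times. FST and FSTL3 stayed above 0, and INHBA, TGFBR1, TGFBR2 and TGFBI below 0, under all 8 settings. These are not 8 separate checks, because only removal of the length and GC trend moved genes by different amounts. The signs of FSTL1, INHBB, TGFB1 and TGFB2 were not the same under all. The number of genes highest in the CBFB table was 6 as well after scaling to each table's sum. With the shortest protein-coding transcript as length, 7 of 10 genes kept their rank in the KO1 table, where TGFBR2 moved from rank 3 to 7, below TGFBR1, and with coding length 8 of 10 did. For FST, FSTL1, FSTL3, TGFB1, TGFBR1 and TGFBI that shortest transcript is shorter than the gene's own coding length, so those ranks rest on partial transcripts. No paired analysis was possible because the tables hold no values per replicate, and leaving out a replicate was not possible for the same reason. The limit on all results is that each value is a mean over knockout and WT libraries, with counting error only.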
